A study of Mus musculus with 12 samples.

Results

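Notch signaling passes between touching cells. A ligand of the Delta-like or Jagged family on a cell binds a Notch receptor on its neighbour, ADAM proteases and γ-secretase then cut the receptor, and the freed intracellular part joins RBPJ and Mastermind proteins in the nucleus to switch on genes such as the Hes and Hey repressors. In the neural crest lineage the pathway is known for holding cells back from neuronal differentiation and for favouring glia, and in vessels it is known for setting the fates of endothelial and mural cells. The 10 genes described here were taken by symbol from the 32289 genes of the feature lists. They comprised the ligands Dll1, Dll3, Dll4 and Jag1, the receptors Notch1, Notch2 and Notch3, and the repressors Hes1, Hes6 and Hey1.

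Cells of the superior mesenteric ganglion (SMG), a sympathetic ganglion of the abdomen, were measured by droplet scRNA-seq in 12 mice of the 129+Ter/SvJcl strain, with 1 library a mouse. Th-MYCN+/- mice carry human MYCN under a tyrosine hydroxylase promoter, which is active in sympathetic cells, and can develop neuroblastoma in this ganglion. The groups were 10 Th-MYCN+/- mice at 3 weeks of age (#1 to #10), 1 wild-type (WT) mouse at 3 weeks and 1 older mouse. The older mouse was Th-MYCN+/- and 6 weeks of age. All were dissociated with warm enzymes before capture. According to the paper, the older mouse was chosen because macroscopic tumors were seen after dissection. Its age and this selection go together, and their separate parts were not tested. The question put to the data was which cells of the ganglion carried the ligands, receptors and targets of the pathway, and how their levels differed between cells and conditions.

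The libraries held 1444554 to 6388766 UMIs in the 10 mice of 3 weeks, 1147772 in the WT mouse and 4824039 in the mouse of 6 weeks, and 12024 cells were kept, 10462 of them from the 10 mice. Transcripts of the transgene were counted in each Th-MYCN+/- library and 0 times in the WT library. Cell classes were named from marker lists that held none of the 10 genes, and the 10 genes were also left out of the clustering. The median summed level of each marker list was highest in the class it names. Cells of 2 clusters stayed unnamed and entered no comparison, and the larger of these, of shallow cells, made up 19.9% of the cells of the 10 mice, 11.4% of those at 6 weeks and 1.29% of the WT cells. The libraries shared 94 pairs of cell barcodes, where 88.8 were expected from their numbers. Library #2 stood apart, since 38.8% of its UMIs lay in cells (74.1% to 87.1% in the other 9), 1508 of its 1844 cells were ganglion-like, and 36 were neuroblast-like and 7 Schwann-like. An estimated 84.1% of the UMIs of its neuroblast-like cells were free RNA, and results are therefore also given without it. In the comparisons of classes below, levels are counts per 1000000 UMIs (CPM) of all cells of a class in a mouse, and a level cannot tell more RNA in each cell from more cells with the RNA.

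The Delta-like ligands differed in the class that held most of their UMIs. Dll4, the Delta-like ligand of vascular sprouts (chr2:119325784-119335962, GRCm38, plus strand), was found mainly in endothelial-like cells, where the lowest, median and highest mouse had 0, 79.2 and 317 CPM (110 ± 105, SD, n = 10; 68 UMIs). The 2 mice at 0 were #2 and #6. All the Schwann-like cells together held 1 Dll4 UMI and the neuroblast-like cells 12. The ganglion-like cells held 0 of 8228177 UMIs, which allows up to 0.365 CPM. The endothelial-like level exceeded the Schwann-like level in 8 of 10 mice and both were 0 in the rest, with a log2 difference of 6.88 ± 0.58 (SE; edgeR quasi-likelihood test without a filter on low counts, Benjamini-Hochberg adjusted p = 9.2e-31). The ratio of the pooled levels was 252, with a counting interval of 43.8 to 10110.5.

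Dll1, a Delta-like ligand carried by differentiating neural precursors (chr17:15367354-15376872, minus strand), had 75 UMIs in the neuroblast-like cells, at 0, 5.98 and 10.2 CPM in the lowest, median and highest mouse (5.14 ± 3.31, SD, n = 10). It was 0 in #2 and #5. The ganglion-like cells held 2 Dll1 UMIs in all, and the difference of neuroblast-like from ganglion-like cells was 3.04 ± 0.59 on the log2 scale (edgeR without filter, adjusted p = 1.9e-06), higher in 7 of 10 mice and lower in 2. The Schwann-like cells held 0 of 2414932 UMIs, so that the pooled neuroblast-like level was at least 4.78-fold higher, against a floor of 3 counts over all mice. Endothelial-like cells had 7 Dll1 UMIs, or 10.8 CPM when pooled, beside 5.94 CPM in the pooled neuroblast-like cells (ratio 1.81, counting interval 0.704 to 3.92). Levels of Dll1 were low throughout, and empty droplets held 1.69 CPM.

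Dll3, a ligand that is known to inhibit Notch within its own cell rather than to activate a neighbour (chr7:28293553-28302238, minus strand), had the opposite order of these sympathetic classes. In ganglion-like cells 103 UMIs gave 0, 8.99 and 20.1 CPM at the lowest, median and highest mouse (8.61 ± 7.12, SD, n = 10), with 0 in #6, #7 and #8, whereas the neuroblast-like cells held 13 UMIs and at most 2.25 CPM. The ranges overlapped at the low end. Dll3 was lower in neuroblast-like than in ganglion-like cells by a log2 difference of -2.67 ± 0.44 (edgeR without filter, adjusted p = 1.0e-08), lower in 7 of 10 mice and higher in 2. Dll3 in empty droplets stood at 8.13 CPM, below the 12.5 CPM of the pooled ganglion-like cells and above the 1.03 CPM of the neuroblast-like cells.

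Jag1, the Jagged-type ligand (chr2:137081456-137116644, minus strand), was carried by stromal and glial classes. Schwann-like cells had 0, 21.4 and 164.5 CPM in the lowest, median and highest mouse (36.7 ± 46.6, SD, n = 10), and 36 of the 83 UMIs came from #3. Endothelial-like cells had 0, 12.5 and 41.4 CPM. The means were highest in myofibroblast-like (83.4 ± 103 CPM, SD, n = 9; 6 UMIs) and fibroblast-like cells (46.0 ± 93.7 CPM, n = 9; 4 UMIs). Neither class differed from Schwann-like cells past the threshold (log2 difference 0.02 and -0.30, edgeR adjusted p = 0.998 and 0.78). Macrophage-like cells held 4 UMIs. The neuroblast-like cells held 13 UMIs and the ganglion-like cells 1. Jag1 in Schwann-like cells exceeded neuroblast-like cells by 4.56 ± 0.39 on the log2 scale (edgeR, adjusted p = 1.8e-19; 9 of 10 mice) and ganglion-like cells by 5.82 ± 0.55 (adjusted p = 2.7e-17; 9 of 10 mice), and without #2 by 4.67 and 5.81. With Schwann-like and ganglion-like cells fitted alone Jag1 did not pass the filter on low counts and was not tested. The latter call therefore rests on the fit of all classes together.

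Among the receptors, Notch1 (chr2:26457903-26516663, minus strand), the receptor shared by glia and endothelium, was found in Schwann-like and endothelial-like cells. The Schwann-like cells of the 10 mice had 0, 93.2 and 263 CPM at the lowest, median and highest (98.3 ± 68.8, SD; 233 UMIs), and the endothelial-like cells 26.3, 94.2 and 366 CPM (138 ± 110; 93 UMIs). Both ranges overlapped broadly, and the classes did not differ past the threshold (log2 difference 0.26 ± 0.31, edgeR adjusted p = 0.55). Neuroblast-like cells had 0, 1.38 and 38.8 CPM, where the highest value was 1 UMI in #2 and the next was 3.94 CPM in #3. Ganglion-like cells had 0, 2.19 and 18.0 CPM. Notch1 was higher in Schwann-like than in neuroblast-like cells by 5.97 ± 0.37 (edgeR, adjusted p = 1.1e-25) and than in ganglion-like cells by 4.55 ± 0.39 (adjusted p = 4.7e-18), each in 9 of 10 mice, and the exception was #2 with its 7 Schwann-like cells.

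Notch3, the receptor of vascular mural cells (chr17:32120820-32166852, minus strand), was found in the myofibroblast-like cells, a class defined by contractile and pericyte genes such as Acta2 and Rgs5. The 9 mice with at least 5 such cells had 293.5, 578 and 1307 CPM at the lowest, median and highest (737 ± 364, SD, n = 9), and each of the 9 had at least 3 Notch3 UMIs. All endothelial-like cells together held 2 Notch3 UMIs, and no mouse overlapped between these classes. The log2 difference was 6.81 ± 0.59 (edgeR, adjusted p = 2.7e-17; higher in 9 of 9 mice), and the ratio of pooled levels was 214 with a counting interval of 57.1 to 1806. With each cell thinned to 500 UMIs, 28.0% of myofibroblast-like cells had a Notch3 UMI (26 of 93 cells, Clopper-Pearson 95% interval 19.1% to 38.2%), against 0 of 302 endothelial-like cells (interval up to 1.21%). Without thinning the shares were 38.5% (47 of 122 cells) and 0.471% (2 of 425 cells, interval up to 1.69%). The thinned cells had median depths of 899 and 1726 UMIs. Such intervals cover counting error only.

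Notch2 (chr3:98013527-98150361, plus strand) was scarcely detected. It had 6 UMIs in Schwann-like, 3 in neuroblast-like, 2 in fibroblast-like and 1 in endothelial-like cells, and 0 in the ganglion-like, myofibroblast-like and macrophage-like cells of the 10 mice. On those 6 and 3 UMIs the Schwann-like level was higher than the neuroblast-like level by 2.25 ± 0.81 on the log2 scale (edgeR without filter, adjusted p = 0.016), with a ratio of pooled levels of 10.5 and a counting interval of 2.23 to 64.6, but 3 mice were higher, 3 lower and 4 had none in either class.

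**Figure D1:**
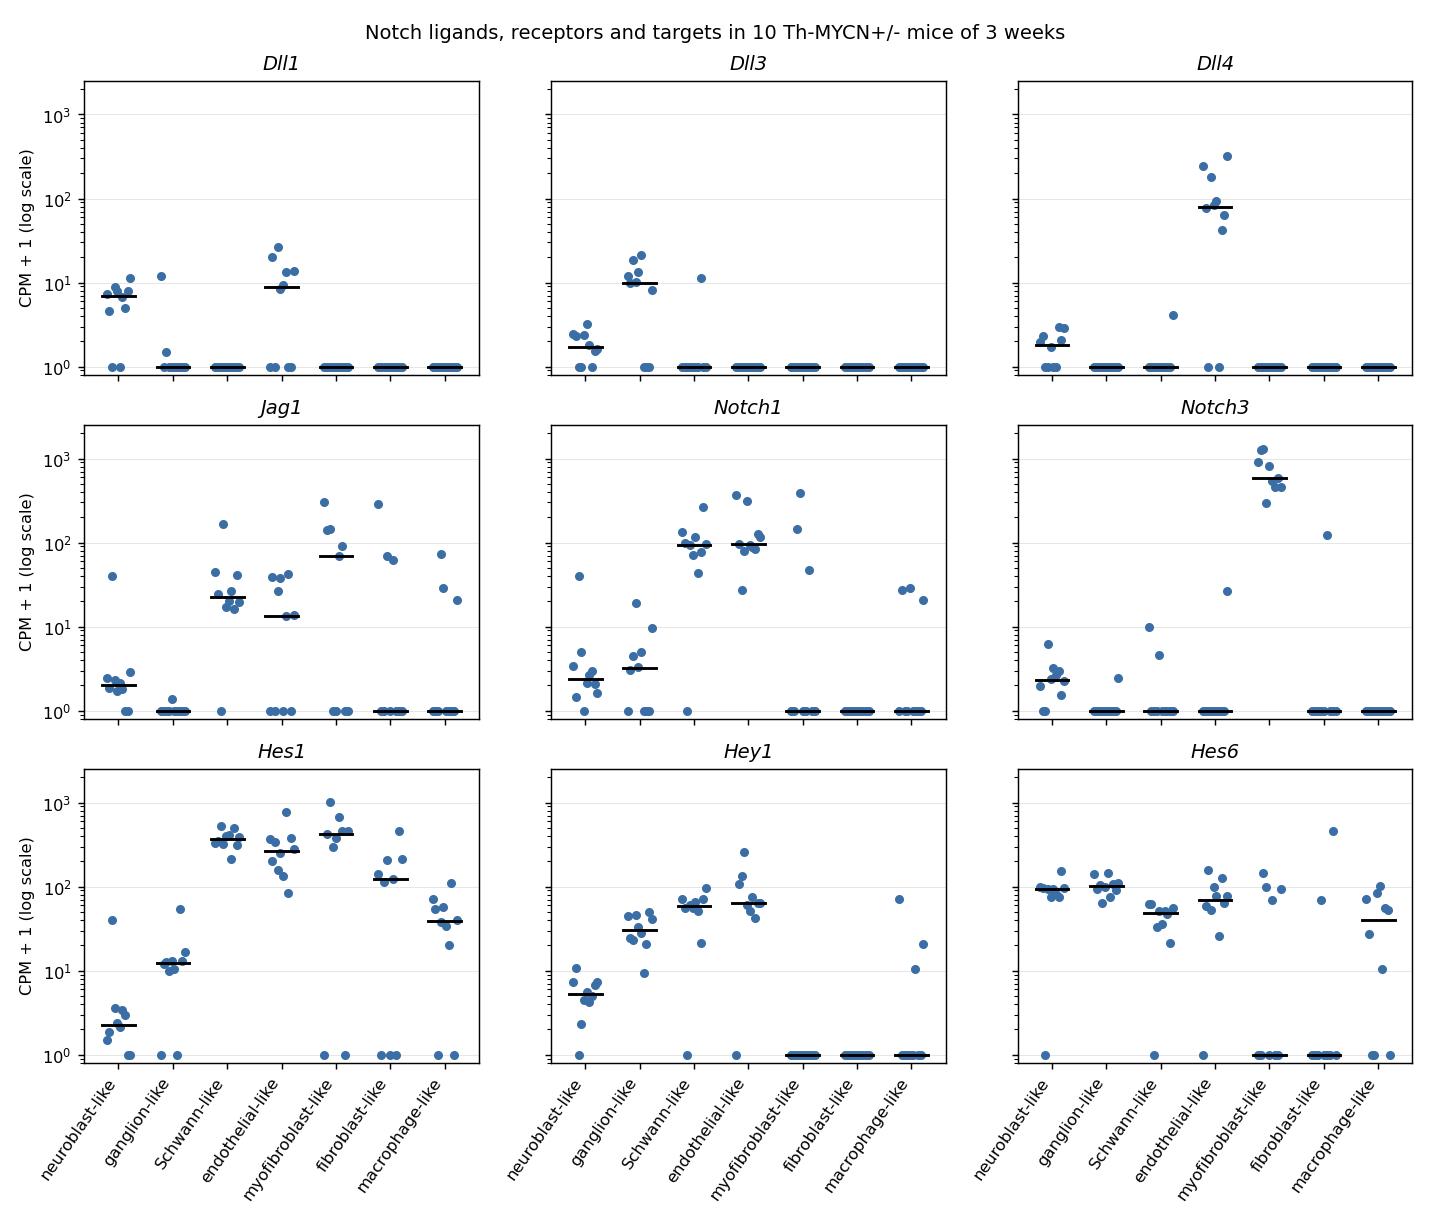
Level of 9 Notch genes (Notch2 is left out) by cell class in the 10 Th-MYCN+/- mice of 3 weeks, as CPM + 1 on a log scale. Each point is 1 mouse with at least 5 cells of the class and the bar is the median, and the median of Notch3 stands at 578 CPM in myofibroblast-like cells while that of Hes1 stands at 369 CPM in Schwann-like and 1.26 CPM in neuroblast-like cells.

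Hes1, a repressor and direct Notch target that is also induced by other signals (chr16:30064384-30067796, plus strand), was abundant in glia and near 0 in neuroblast-like cells. Schwann-like cells had 212, 369 and 518 CPM at the lowest, median and highest mouse (372 ± 89.7, SD, n = 10; 900 UMIs). Neuroblast-like cells had 0, 1.26 and 38.8 CPM on 13 UMIs, and the highest value was 1 UMI in #2. Without #2 the neuroblast-like mean was 1.21 ± 0.98 CPM (SD, n = 9). No mouse's neuroblast-like level reached the lowest Schwann-like level. The log2 difference was 7.96 ± 0.35 (edgeR, adjusted p = 2.2e-37; 10 of 10 mice), and 8.07 without #2.

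The ganglion-like cells had 0, 11.4 and 53.9 CPM of Hes1 (103 UMIs), and the highest was #7. They lay between the other neural classes, with a log2 difference of -3.34 ± 0.43 of neuroblast-like from ganglion-like cells (edgeR, adjusted p = 4.2e-11; lower in 7 of 10 mice, higher in 3) and of 4.62 ± 0.30 of Schwann-like from ganglion-like cells (adjusted p = 5.6e-26; 10 of 10 mice). Empty droplets held 41.98 CPM of Hes1, more than the pooled 12.5 CPM of the ganglion-like and 1.03 CPM of the neuroblast-like cells. Free RNA was estimated at 15.9% to 59.1% of the UMIs of ganglion-like cells by mouse, and with the expected free RNA subtracted the difference between neuroblast-like and ganglion-like cells was -3.66 ± 0.55 (edgeR, adjusted p = 7.5e-09). With each cell thinned to 500 UMIs, 14.7% of Schwann-like, 9.27% of endothelial-like, 1.72% of macrophage-like, 0.532% of ganglion-like and 0.0759% of neuroblast-like cells had a Hes1 UMI, at median depths of 1143, 1726, 1414.5, 1344 and 4413 UMIs. Clopper-Pearson intervals were 0.357% to 4.96% for macrophage-like (3 of 174 cells), 0.266% to 0.950% for ganglion-like and 0.00919% to 0.274% for neuroblast-like cells. The neuroblast-like interval lay below the macrophage-like interval, and the ganglion-like interval overlapped it. These intervals pool the cells of all 10 mice and cover counting error only, so they are no test between classes. The pooled macrophage-like level of 38.0 CPM also lay below that of empty droplets. The share was highest in myofibroblast-like cells, at 19.4% (18 of 93 cells), with an interval of 11.9% to 28.9% that included the Schwann-like share. In fibroblast-like cells it was 6.35% (4 of 63 cells).

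In the order of mean levels Hes1 was highest in myofibroblast-like cells (412 ± 315 CPM, SD, n = 9), then in Schwann-like and endothelial-like cells (295 ± 194), then in fibroblast-like (140 ± 148, n = 9), macrophage-like (41.7 ± 33.2), ganglion-like and neuroblast-like cells. Among the 3 highest classes no neighbouring pair passed the threshold, with a log2 difference of -0.68 of myofibroblast-like from Schwann-like cells (edgeR, adjusted p = 0.10) and of 0.54 of Schwann-like from endothelial-like cells (adjusted p = 0.090). The latter pair passed the threshold under 6 of 14 alternatives, at -0.89 to -0.71 for endothelial-like against Schwann-like cells. Endothelial-like cells exceeded fibroblast-like cells (log2 difference 1.75, adjusted p = 0.0048), and the steps from fibroblast-like to macrophage-like and on to ganglion-like cells did not pass (adjusted p = 0.34 and 0.053). Of all genes tested 31.8% passed between myofibroblast-like and Schwann-like cells, 27.2% between endothelial-like and fibroblast-like cells, 22.2% between fibroblast-like and macrophage-like cells and 55% between ganglion-like and macrophage-like cells.

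Hey1, the second direct target and a repressor of arterial and neural crest cells (chr3:8663359-8667256, minus strand), was measured in ganglion-like cells as well as in glia and endothelium. Endothelial-like cells had 0, 62.7 and 258 CPM at the lowest, median and highest mouse (84.6 ± 70.4, SD, n = 10), Schwann-like cells 0, 57.4 and 94.96 CPM (54.2 ± 26.7), ganglion-like cells 8.31, 29.4 and 48.6 CPM (31.0 ± 13.1), and neuroblast-like cells 0, 4.22 and 9.71 CPM (4.47 ± 2.77). Ganglion-like and neuroblast-like ranges overlapped only where #6 had 1 ganglion-like UMI. Hey1 was lower in neuroblast-like than in ganglion-like cells by a log2 difference of -2.54 ± 0.28 (edgeR, adjusted p = 3.0e-13), and higher in Schwann-like than in ganglion-like cells by 0.90 ± 0.26 (adjusted p = 0.0019) and than in neuroblast-like cells by 3.43 ± 0.28 (adjusted p = 6.0e-20). Endothelial-like and Schwann-like cells did not differ past the threshold (0.36 ± 0.30, adjusted p = 0.37). The 104738 UMIs of myofibroblast-like cells held 0 Hey1 UMIs, and the pooled endothelial-like level was at least 2.84-fold higher. The pooled ganglion-like level of 28.2 CPM stood near the 22.5 CPM of empty droplets.

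Hes6 differs from its relatives in role, as it is not induced by Notch, antagonizes Hes1 and promotes neuronal differentiation (chr1:91411483-91414038, minus strand). Neuroblast-like cells had 0, 93.3 and 154 CPM (85.7 ± 37.6, SD, n = 10; 1254 UMIs) and 95.3 ± 23.9 without #2, which had 0. Ganglion-like cells had 63.1, 101 and 143 CPM (102 ± 25.5; 849 UMIs), and Schwann-like cells 0, 48.1 and 61.8 CPM (41.3 ± 19.7; 117 UMIs). The neuroblast-like and ganglion-like ranges overlapped and the classes did not differ past the threshold (-0.20 ± 0.21, edgeR adjusted p = 0.41). Schwann-like cells were lower than neuroblast-like cells by a log2 difference of -0.98 ± 0.24 (adjusted p = 2.0e-04; lower in 9 of 10 mice and tied at 0 in #2) and than ganglion-like cells by -1.18 ± 0.25 (adjusted p = 2.1e-05; 10 of 10 mice). Endothelial-like cells had 0, 68.9 and 158 CPM (48 UMIs), a range that overlapped those of both sympathetic classes, and their difference from neuroblast-like cells did not pass the threshold (-0.50 ± 0.29, edgeR adjusted p = 0.12), where 63.8% of all genes passed. Empty droplets held 79.1 CPM of Hes6, and the free RNA subtracted fit gave -1.03 ± 0.30 for Schwann-like against neuroblast-like cells (adjusted p = 0.0015).

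The promoters of Notch targets are read by RBPJ, whose core site has the letters TGGGAA on either strand, so the windows of 250 bases before the start of each gene were searched for them (RefSeq, GRCm38.p6). Of the 10 genes 8 had an entry, all but Hes1 and Hey1, and 0 of the 8 held these letters, against 24.1% of all 27025 genes with an entry. In the list of 42 other pathway genes, described below, 12 of 33 with an entry held them (36.4%). Hes6 is shown because it is the target-family gene with no match and with its highest mean levels in the sympathetic classes, and Hes5 and Hey2 because both have matches and are Notch targets that stood higher in Schwann-like than in neuroblast-like cells. Capitals mark the letters searched, which lay 226 and 82 bases before the start in Hes5 and 207 bases before it in Hey2, and a second RefSeq entry of Hes6 also held none. Nrarp, another Notch target that stood higher in Schwann-like than in neuroblast-like cells, had an entry with 0 matches. The genes shown therefore do not stand for the other targets. These windows give no information on binding or on the differences between classes.
Hes6, chr1:91414039-91414288, minus strand: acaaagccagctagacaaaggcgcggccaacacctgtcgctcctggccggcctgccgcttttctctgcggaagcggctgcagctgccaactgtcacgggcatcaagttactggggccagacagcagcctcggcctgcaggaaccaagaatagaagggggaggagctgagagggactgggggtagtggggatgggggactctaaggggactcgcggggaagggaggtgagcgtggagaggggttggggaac
Hes5, chr4:154960673-154960922, plus strand: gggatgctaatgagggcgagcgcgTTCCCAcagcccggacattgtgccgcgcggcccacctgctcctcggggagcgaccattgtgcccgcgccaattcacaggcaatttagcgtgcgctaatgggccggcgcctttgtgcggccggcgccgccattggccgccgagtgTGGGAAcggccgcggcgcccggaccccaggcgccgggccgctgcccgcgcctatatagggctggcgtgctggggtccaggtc
Hey2, chr10:30842784-30843033, minus strand: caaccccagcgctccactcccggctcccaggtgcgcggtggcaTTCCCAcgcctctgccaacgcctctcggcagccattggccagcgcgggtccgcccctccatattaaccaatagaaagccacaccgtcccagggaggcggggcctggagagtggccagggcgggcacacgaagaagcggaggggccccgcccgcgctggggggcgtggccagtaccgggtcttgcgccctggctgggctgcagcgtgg

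In the main fit of the classes together, 6 of the 10 genes passed the filter on low counts (Notch1, Notch3, Jag1, Hes1, Hes6 and Hey1). Notch2, Dll1, Dll3 and Dll4 were tested between classes without it, and Dll4 also passed it in some alternatives. Without #2 Dll4 was higher in neuroblast-like than in ganglion-like cells by 1.90 ± 0.63 on the log2 scale (edgeR, adjusted p = 0.0070). Over the 10 mice this rests on 12 against 0 UMIs, with 6 mice higher and 4 tied. Empty droplets held 2.54 CPM of Dll4, above the pooled 0.950 CPM of the neuroblast-like cells. In Schwann-like against neuroblast-like cells 4 of the 6 were higher (Hes1, Notch1, Jag1 and Hey1), Hes6 was lower, and Notch3 gave -0.09 ± 0.90. Of all 6488 genes tested 68.2% passed in this comparison, 2007 higher and 2421 lower. The counts were the same against ganglion-like cells, where Notch3 gave 1.40 ± 0.79 (edgeR, adjusted p = 0.12) and 62.6% of all genes passed. With Schwann-like and ganglion-like cells fitted alone Jag1 did not pass the filter and was not tested. Without the filter on low counts 39.8% of 20291 genes passed in the first comparison and 35.5% in the second. These backgrounds were so high that a count of called genes says little, and the sizes of the differences carry the description.

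In neuroblast-like against ganglion-like cells Hes1, Hey1 and Notch1 were lower and Notch3 was higher, where 64.2% of all genes passed (38.6% without the filter). Hes1, Notch1 and Notch3 passed the filter on low counts through other classes in which they are high, and with these classes fitted alone they were not tested, so that of the 4 calls that of Hey1 remained. The call of Notch1 (-1.42 ± 0.51, edgeR adjusted p = 0.012) came with 5 mice in each direction and 17 against 27 UMIs, and it was lost with free RNA subtracted (-1.10, adjusted p = 0.13). Empty droplets held 10.7 CPM of Notch1, more than either class. Notch3 (1.49 ± 0.62, adjusted p = 0.031) rested on 16 against 1 UMIs, with a ratio of pooled levels of 10.4 and a counting interval of 1.62 to 437, and 4 alternatives, free RNA subtracted among them, left it at adjusted p of 0.066 to 0.26. Jag1 gave 1.26 ± 0.58 (adjusted p = 0.063) and Hes6 -0.20 ± 0.21. Hes1 and Hey1 kept their calls in each alternative in which they were tested (14 and 15 fits, the main one included).

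In endothelial-like against Schwann-like cells 0 of the 6 genes passed in the edgeR fit (0 also by DESeq2), where 41.8% of all genes did, and 1 of the 6, Hes1, had an unadjusted p under the threshold (p = 0.042, edgeR). In myofibroblast-like against endothelial-like cells Notch3 was higher, and Hey1 and Notch1 were lower (25.4% of all genes passed). With these classes fitted alone Hey1 and Notch1 did not pass the filter on low counts and were not tested. Of these calls only that of Notch3 remained there. Notch1 fell by a log2 difference of -1.89 ± 0.62 (edgeR, adjusted p = 0.016; 6 against 93 UMIs; lower in 7 of 9 mice), but gave -0.93 with adjusted p = 0.37 under RLE size factors, which moved the median of all genes in this comparison by 0.90 on the log2 scale. Without the filter 20.2% of all genes passed in endothelial-like against Schwann-like cells, and 9.61% in myofibroblast-like against endothelial-like cells.

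**Figure D2:**
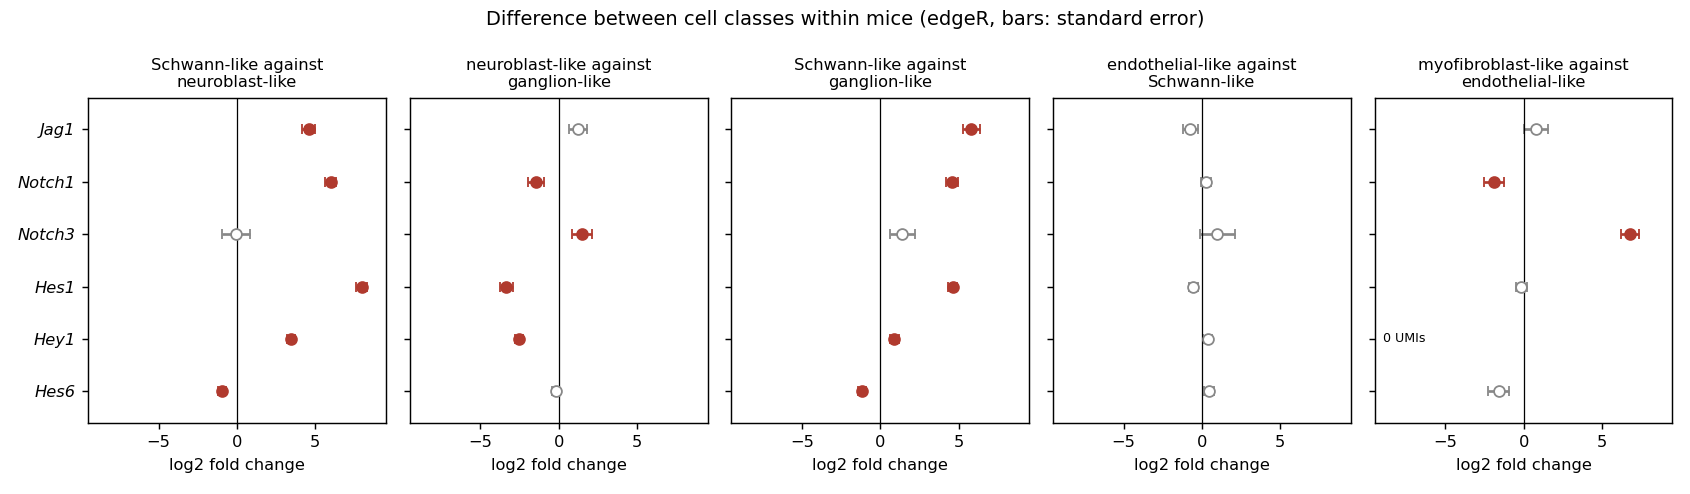
Log2 fold changes of the 6 genes that passed the filter in 5 comparisons of cell classes within the Th-MYCN+/- mice of 3 weeks (edgeR; bars are standard errors). Red filled points passed the adjusted threshold of 0.05 and grey open points did not; Hes1 lies at 7.96 in Schwann-like against neuroblast-like cells, and no point is drawn for Hey1 where myofibroblast-like cells held 0 UMIs.

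The rest of the pathway was read from a list of 42 genes, of which 21 passed the filter. In Schwann-like against neuroblast-like cells 9 of the 21 were higher, 7 were lower and 5 did not pass, where 68.2% of all genes passed. The median log2 difference was 0.18 beside -0.15 for all genes. The largest rises were in the targets Hey2 (6.86), Heyl (6.29) and Nrarp (5.95), the last a feedback inhibitor of the pathway, and the largest falls in Dner (-3.49), a neuronal Notch ligand, the ligand Jag2 (-2.82) and Fbxw7 (-2.28), which marks Notch for degradation. Against ganglion-like cells 9 were higher, 8 were lower and 4 did not pass, where 62.6% of all genes passed. Nrarp (5.34), Heyl (4.54) and Lfng (4.43), a glycosyltransferase that modifies Notch, rose most, while Dner (-7.11), Jag2 (-3.35) and the ubiquitin ligase Neurl1a (-3.34) fell most. The sizes for Dner rest on 1 UMI in Schwann-like cells, against which its pooled level was 19.1-fold higher in neuroblast-like cells (counting interval 3.35 to 763) and 220-fold in ganglion-like cells (39.4 to 8717). That of Lfng rests on 2 UMIs in ganglion-like cells (ratio 56.2, interval 14.4 to 484). Hes5, a further target that did not pass the filter and was added after its values were seen, was higher in Schwann-like than in neuroblast-like cells by 6.55 ± 0.35 (edgeR without filter, adjusted p = 1.0e-76).

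In neuroblast-like against ganglion-like cells 4 of the 21 list genes were higher, 9 were lower and 8 did not pass, where 64.2% of all genes passed. The count lay near that share and says little about the pathway. Dner (-3.61), Hey2 (-3.36) and the γ-secretase subunit Psen2 (-2.30) had the largest falls, and the glycosyltransferase Mfng (2.75), the co-regulator Snw1 (1.53) and Fbxw7 (1.16) the largest rises. The median was -0.53, beside -0.18 for all genes. Endothelial-like cells differed from Schwann-like cells in 6 of the 21, where 41.8% of all genes passed. Mfng (6.96), Jag2 (5.49) and Lfng (2.46) were higher. Heyl (-3.90), the γ-secretase subunit Psenen (-0.71) and Hey2 were lower, with Hey2 at 0 UMIs in endothelial-like cells. Mfng rests on 2 UMIs in Schwann-like cells (ratio 200, counting interval 54.1 to 1676) and Heyl on 2 in endothelial-like cells. In myofibroblast-like cells Heyl (5.27; 24 against 2 UMIs, ratio 74.6, interval 18.5 to 651), Nrarp (1.94) and Dtx3 (1.84) stood above the endothelial-like level. Hey2 also passed the threshold there, but on 2 UMIs of 1 mouse against 0, and no size is given. Below the endothelial-like level stood 7 genes, where 25.4% of all genes passed in either direction. Of the 7 genes Mfng, Lfng, the protease Adam10 and Psen2 had 0 UMIs in myofibroblast-like cells.

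A list of 13 proneural and Id genes was set beside the pathway, since proneural factors drive neuronal differentiation and are repressed by Hes proteins, and Id proteins block them. The sympathetic factors Phox2a (-4.05 ± 0.30) and Hand2 (-2.21 ± 0.26) were lower in Schwann-like than in neuroblast-like cells, and Id3 (5.93 ± 0.33), Id4 (3.83 ± 0.30) and Id2 (1.34 ± 0.30) were higher, each past the threshold in edgeR, while Id1 gave -0.48 ± 0.40. In neuroblast-like against ganglion-like cells Id3 (-2.64), Hand2 (-1.89), Id1 (-1.88), Id4 (-1.73) and Phox2a (-0.76) fell, and Id2 (-0.21) did not pass. Insm1, which did not pass the filter, was higher in neuroblast-like than in ganglion-like cells by 5.76 ± 0.40 (edgeR without filter, adjusted p = 9.0e-45).

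Differences within a class were examined next. Neuroblast-like cells of at least 1000 UMIs were thinned to that number and divided at their mouse's median of a cell cycle list of 34 genes, in the 9 mice with at least 5 cells on each side. Hes6 was at 42.9, 70.4 and 107 CPM in the lowest, median and highest mouse among cycle-high cells, and at 79.1, 118 and 202 CPM among cycle-low cells. The ranges overlapped between mice, and Hes6 was lower in the cycle-high cells of 9 of 9 mice, by a log2 difference of -0.72 ± 0.12 (edgeR, paired by mouse, adjusted p = 1.3e-04). Of all 9658 genes 20.5% passed (12.7% without the filter on low counts), so that Hes6 was 1 of 1981. Dll1 gave 0.86 ± 0.36 (adjusted p = 0.099; higher in 7 of 9 mice) and Hey1 -0.41 ± 0.38 (adjusted p = 0.51). The other 7 genes of the 10 did not pass the filter here.

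The genes of the proneural and Id list moved in both directions along this split. Insm1 (0.90 ± 0.14), Id1 (1.54 ± 0.34) and Id2 (0.85 ± 0.16) were higher in cycle-high cells, as was Neurod1, and Phox2a (-1.46 ± 0.10), Id3 (-0.81 ± 0.28) and Hand2 (-0.46 ± 0.12) were lower, past the threshold in edgeR. Of the 42 pathway genes 30 passed the filter, 1 was higher (Ctbp1, a co-repressor, 0.25) and 6 were lower, with Psen2 (-2.19), Mfng (-1.73) and Dner (-1.52) first. Of all genes 20.5% passed the threshold in this comparison. The cycle-high cells were deeper in 9 of 9 mice, and 16.1% of the cells lay within 1 UMI of their mouse's median. What part of the difference in Hes6 goes with depth was not tested.

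Schwann-like cells of at least 500 UMIs were divided in the same manner by 13 immediate early genes, among them Fos, Jun and Egr1, which respond within minutes to stimuli, cell dissociation included. Hes1 was at 433, 550 and 755 CPM in the lowest, median and highest mouse among the immediate early-high cells, and at 118, 197 and 254 CPM among the immediate early-low cells. Each high value exceeded each low value in the 9 mice. The log2 difference was 1.48 ± 0.15 (edgeR, paired by mouse, adjusted p = 4.1e-08; higher in 9 of 9 mice). Of all 4161 genes 41 passed (0.985%), of which 13 were the list itself and 28 were others, 25 higher and 3 lower, and Hes1 ranked 7th by p among the 28. Without the filter on low counts 99 genes passed (0.662%).

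Of the 10 genes 4 passed the filter here, and the 3 besides Hes1 did not move with Hes1 past the threshold. Jag1, which did not pass the filter, gave 0.40 without the filter (edgeR, adjusted p = 0.96; higher in 6 of 9 mice). Notch1 gave -0.64 ± 0.25 (edgeR, adjusted p = 0.35; lower in 7 of 9 mice), Hes6 -0.24 ± 0.32 and Hey1 -0.02 ± 0.26 (adjusted p = 0.87 and 1.0), and 0 of the 14 pathway list genes tested passed in this edgeR fit. Hes1 was also higher in the immediate early-high cells of the WT mouse (610 against 221 CPM) and of the mouse of 6 weeks (368 against 198 CPM), which have no replicate. The immediate early-high cells were deeper in 9 of 9 mice, and 50.7% of the cells lay within 1 UMI of the dividing value, so the split is coarse. In the 3 Schwann-like clusters Hes1 stood at 256 CPM in the largest, at 638 CPM in the cluster led by immediate early genes and at 939 CPM on 12 UMIs in a cluster of 15 cells led by myelin genes. In the largest and the immediate early cluster Jag1 stood at 22.5 and 62.9 CPM, Notch1 at 106 and 76.9 CPM and Hey1 at 60.5 and 60.1 CPM. These values are a description with no test.

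**Figure D3:**
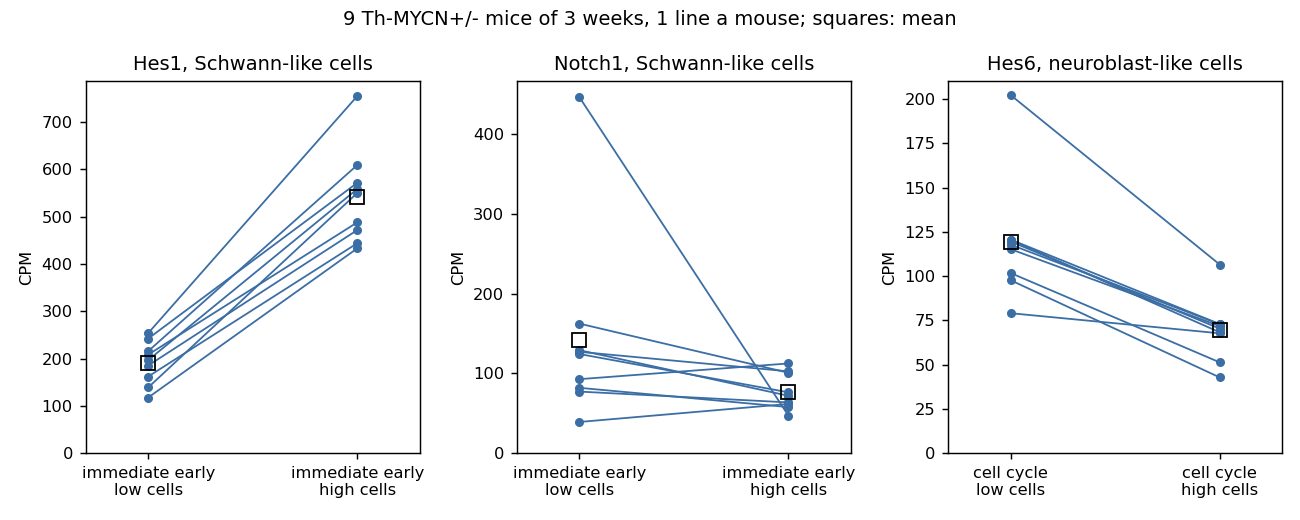
CPM of Hes1 and Notch1 in Schwann-like cells divided by immediate early genes and of Hes6 in neuroblast-like cells divided by cell cycle genes; each line is 1 of 9 Th-MYCN+/- mice of 3 weeks and squares are means. Hes1 rose in 9 of 9 mice (to 433 to 755 CPM) and Hes6 was lower in cycle-high cells in 9 of 9, whereas Notch1 was lower in 7 of 9.

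The WT mouse and the mouse of 6 weeks were single libraries, so no test was possible. Their levels were set beside the range of those Th-MYCN+/- mice of 3 weeks with at least 20 cells of the class. The mouse of 6 weeks differed from these mice in age and in its selection for a tumor. Which of these its values go with was not tested. In Schwann-like cells Hes1 was at 425 CPM in the WT mouse (exact Poisson interval 346 to 517, counting error only) and at 273 CPM at 6 weeks (229 to 323), both inside the 212 to 492 CPM of 9 mice. Notch1 was at 97.7 and 106 CPM, inside 42.5 to 263 CPM. Jag1 in Schwann-like cells was at 17.0 CPM in the WT mouse and at 12.2 CPM at 6 weeks, and the latter lay below the lowest of 9 mice (15.4 CPM) with an interval of 4.49 to 26.6 CPM that reached into their range. In ganglion-like cells Hey1 (9.81 CPM in WT, 18.7 CPM at 6 weeks) and Hes6 (91.5 and 77.7 CPM) lay inside, and in neuroblast-like cells of the mouse of 6 weeks Hes6 was at 89.5 CPM, also inside.

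In endothelial-like cells, where 7 mice gave the range, Hey1 was at 15.1 CPM in the WT mouse (1 UMI, interval 0.383 to 84.3) and at 0 of 39495 UMIs at 6 weeks (interval up to 93.4 CPM), both below the lowest of the 7 mice at 50.4 CPM, and both lay inside the range of the 9 mice with at least 10 cells. Dll4, Notch1, Hes1 and Hes6 lay inside the range in both. Of genes with at least 20 CPM on average in the class, those outside the range made up 20.4% in the WT and 10.5% in the 6-week Schwann-like cells, 17% and 6.87% in ganglion-like cells, 29.1% and 27.4% in endothelial-like cells and 11% in the neuroblast-like cells at 6 weeks. Counting each Notch gene at that level once per class, 1 of 12 lay outside in WT and 2 of 13 at 6 weeks, all named above. Below that level, Dll3 had 7 UMIs in the neuroblast-like cells at 6 weeks, or 3.94 CPM (interval 1.58 to 8.12), above the highest of the 10 mice at 2.25 CPM. Empty droplets of the 6-week library held more, at 14.96 CPM of Dll3. The share of all genes outside the range was not taken below 20 CPM, so this value has no background. The WT library had 32 cells that were named neuroblast-like, with a median of 344 UMIs and 0 UMIs of Dlk1, and these were left out.

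**Figure D4:**
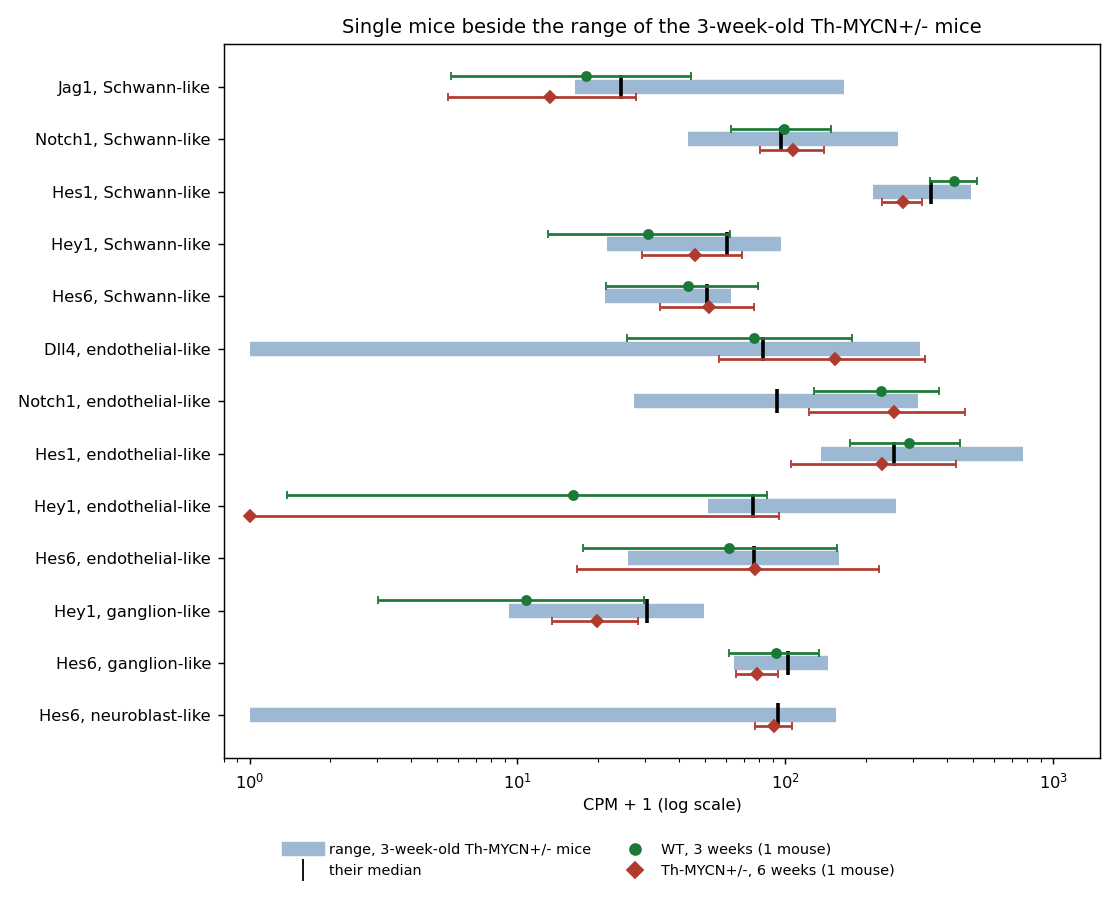
Level (CPM + 1, log scale) of Notch genes with at least 20 CPM on average, by class, in the WT mouse (circles) and the 6-week-old Th-MYCN+/- mouse (diamonds) with exact Poisson intervals, beside the range (bar) and median (tick) of the Th-MYCN+/- mice of 3 weeks. Hes1 in Schwann-like cells stood at 425 and 273 CPM inside the range of 212 to 492 CPM, while both values of Hey1 in endothelial-like cells lay left of the bar.

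Genes whose levels ran most like those of the Notch genes were ranked by Pearson's r over 60 sums of a mouse and class, which share mice and libraries, so that r is a description. For Notch1 they were Itih5 (r = 0.81), Hbegf (0.80) and Olfml2a (0.76), and for Hes1 Prss23 (0.82), Cd81 (0.81) and Cavin3 (0.80). For Hey1 they were Grb14 (0.81), Tspan18 (0.78) and Rgcc (0.77). Hes6 ran most like Stmn2, a microtubule regulator of neurons (0.67), Tcaf1 (0.65) and Phox2a (0.62). The other members had fewer than 200 UMIs and were not ranked.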

How the data were processed

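The authors counted UMIs with Cell Ranger 3.0.2 on mm10 with the human MYCN transgene and deposited the counts for each gene and barcode, neither normalized nor restricted to cells. Barcodes were called as cells by the EmptyDrops method (profile from barcodes of at most 100 UMIs, FDR below 0.01), and cells with at least 200 genes, at most 10% mitochondrial and at most 60% ribosomal UMIs were kept. Cells were clustered with Seurat 5.3.0 (sctransform 0.4.2, 30 components, resolution 0.5) without the 10 genes, the 42 other pathway genes and the transgene, and named from marker lists. Doublets were not removed. Scrublet (scanpy 1.11.5) called 0.441% of cells, and its calls were not used. The spread was over mice. Counts were summed per mouse and class (at least 5 cells) and tested with edgeR 4.0.16 (quasi-likelihood, TMM, filterByExpr with min.count 3, 7 classes fitted together, mouse as a block, Benjamini-Hochberg over all genes tested, FDR below 0.05). The fit was also run on simulated counts with the same mean profile in every class, apart from a set of changed genes, and no differences between mice. That run cannot show how the fit performs on classes that differ in many genes. Classes of a mouse share the animal, and their deviations correlated at -0.01 to 0.37 over the pairs of classes compared. The WT mouse and the 6-week mouse, 1 each, entered no test. Gene positions are from GENCODE on GRCm38. The members and lists were chosen with earlier results of these data known. Named were the 10 genes, the 3 pathway genes past the threshold with the largest change each way, the proneural genes that passed the filter (some genes of that list are not reported here) and the 3 genes most like each member, plus those said to be chosen later. A replicate is a mouse, and intervals on counts cover counting error only.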

Additional observations from a re-analysis of the deposited data

Results flagged for a closer look

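Of 20 sets of a gene and class with at least 20 UMIs, 7 had 1 mouse far from the other 9 by Dixon's ratio. Chance gives this pattern in about 1 of 20 sets of normally distributed values of equal precision. The levels here come from sums of unequal depth, so that rate need not hold and no excess is read from the count. Hes6 in neuroblast-like cells was lowest in #2, at 0 CPM beside a median of 93.3 CPM over the 10 mice. Jag1 in Schwann-like cells was highest in #3, at 164.5 CPM beside 21.4 CPM. Hey1 in endothelial-like cells was also highest in #3 (258 CPM beside 62.7 CPM), as was Notch1 in ganglion-like cells (18.0 CPM on 2 UMIs, beside 2.19 CPM). Notch1 in Schwann-like cells was highest in #8, at 263 CPM beside 93.2 CPM. Hes1 was highest in #7 among ganglion-like cells (53.9 CPM beside 11.4 CPM) and in #6 among endothelial-like cells (769 CPM beside 266 CPM).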

How the results depend on the processing

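No call of the 10 genes changed direction past the threshold in any alternative run. Counts of all genes past the threshold moved most without the filter on low counts, to 8084 (Schwann-like against neuroblast-like), 7836 (neuroblast-like against ganglion-like), 7197 (Schwann-like against ganglion-like), 4096 (endothelial-like against Schwann-like) and 99 (immediate early), and with the compared classes fitted alone, to 6427 (neuroblast-like against ganglion-like), 1778 (endothelial-like against Schwann-like) and 410 (myofibroblast-like against endothelial-like); more genes were tested without the filter, and the cause was otherwise not tested. Of the 10 genes, 7 passed in neuroblast-like against ganglion-like cells without the filter and 1 with the classes fitted alone, where Hes1 did not pass the filter, and 1 passed in myofibroblast-like against endothelial-like cells fitted alone. In endothelial-like against Schwann-like cells, where 0 passed, 2 passed with barcodes of at least 500 UMIs, the stricter cell filter, RLE size factors or at least 10 cells per sum, 1 with log-normalized clustering or without #2, and 3 without the filter. With the shallow cluster joined to the neuroblast-like class, chosen after seeing the data, 2 passed in the cell cycle comparison, as Hey1 gave -1.09 (edgeR adjusted p = 0.040). Outside the range of the 3-week mice lay 1 of 13 Notch values at 6 weeks under the stricter filter (19.7% of all genes). In WT 2 of 12 lay outside with barcodes of at least 500 UMIs (28.7% of all genes) or free RNA subtracted (20.8%), 3 of 12 under the stricter filter (28.6%) and 4 of 22 with at least 10 cells per class (18.6%). Without thinning the shares of cells with a UMI were 24.8% for Hes1 in Schwann-like and 0.442% in neuroblast-like cells, 32.6% for Hes6 in neuroblast-like and 5.27% in Schwann-like cells, and 38.5% for Notch3 in myofibroblast-like cells.

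RLE size factors in place of TMM moved the median of all genes by 0.39, -0.36, -0.34 and 0.90 on the log2 scale in Schwann-like against neuroblast-like, neuroblast-like against ganglion-like, endothelial-like against Schwann-like and myofibroblast-like against endothelial-like cells, and the share of calls that were higher from 45.3% to 60.1%, 42.1% to 28.6%, 43.2% to 27.5% and 22.7% to 61.6%. Under RLE Hes6 was lower in neuroblast-like than in ganglion-like cells (-0.58, edgeR adjusted p = 0.017). Without the mouse as a block 4297, 4108, 3984, 2647, 1598, 1364 and 30 genes passed in the comparisons in the order of the report, and the pairing changed 1 call of the 10 genes, Jag1 in neuroblast-like against ganglion-like cells (1.54, edgeR adjusted p = 0.032 without the block).

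Depth limits Notch2, Notch3 and the ligands, each with 12 to 125 UMIs in the mice of 3 weeks, and the levels of Hes1 and Notch1 in neuroblast-like and ganglion-like cells lie below those of empty droplets.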
